A study of Oncorhynchus mykiss with 32 samples.

Results

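Livers of rainbow trout from a fat muscle line (F) and a lean muscle line (L) were compared on a low energy diet (LE), using the 16 arrays whose sample titles read F-LE (8 livers) or L-LE (8 livers) of 32 arrays in the series. All 16 fish had eaten the LE diet, with 10% lipid, for 6 months from their first meal, and the fish of each line were held in 3 tanks. The lines came from divergent selection on muscle fat measured in live fish. There is 1 line for each direction, so that the livers replicate fish within a line and not the selection itself. The remaining 16 livers came from the same lines on a high energy diet (HE, 23% lipid) and were used only where the LE difference was set beside that on the HE diet. Each array was a nylon membrane with 9023 trout cDNA clones hybridized with radiolabelled cDNA from 1 liver. A clone was tested when it had at least 5 values in both groups, which 7784 of the 9023 clones had.

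Levels below are log2 signals over the median of the array, and differences are F minus L on that scale, so that 1 is a doubling. A cDNA spot does not separate near-identical gene copies, and the level of a spot was not used to say which of several transcripts was more abundant. Clones were named from the additional files of the study, which name 313 of the tested clones, 284 of them with a protein. These files hold clones that the study had picked for a diet or a line effect on these same arrays, so that the direction of a clone picked for its line effect is not independent evidence.

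The liver is the main site of fatty acid synthesis in trout and of amino acid breakdown in vertebrates. It strips amino groups from amino acids through aminotransferases, handles the carbon units released through folate and methionine enzymes, exports lipid and plasma proteins, and supplies NADPH for lipid synthesis. Trout were selected here on fat in muscle, and the comparison asks which liver transcripts differed between the lines while diet was held at LE.

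No clone passed the threshold. With limma, 0 of 7784 clones (0%) had a p under 0.15 after Benjamini-Hochberg adjustment, the rate used in the study's methods, and the smallest adjusted p was 0.73. At an unadjusted p under 0.05, 297 clones (3.82% of those tested) were higher and 207 (2.66%) lower in the F line, together 504 (6.47%). Two-class SAM with 100 permutations called 46 clones at the same rate, 44 higher and 2 lower in the F line. The study ran SAM for the lines over both diets and kept only clones that an analysis of variance found too. The 46 clones are therefore not comparable with its calls. The median absolute difference was 0.166 and the median standard error 0.192, so that for most clones the difference was smaller than its error. The individual transcripts below are therefore described by their values in the livers, with the p of a two-sided exact permutation test over livers that was not adjusted for the number of transcripts and took no account of tanks.

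Of the 16 arrays 4 stood apart from the rest and were not evenly spread over the lines. The median Spearman correlation of an array with the other 15 was 0.943 to 0.967 for 11 arrays and 0.908 for array 19 of the L line, but 0.895, 0.856 and 0.851 for arrays 56, 53 and 68 of the L line and 0.827 for array 62 of the F line. On these 4 arrays the signals were also drawn together, with an SD over clones of 1.42 to 1.62 against 1.71 to 1.86 on the others. Without the 4 arrays, limma again called 0 clones (0%; smallest adjusted p = 0.332), and at an unadjusted p under 0.05, 209 clones were higher (2.69%) and 266 lower (3.42%), so that lower clones now outnumbered higher ones. SAM then called 54 clones, 2 higher and 52 lower, of which 3 were among the 46 called with all arrays. With only array 62 left out, SAM called 1145 clones, 190 higher and 955 lower, and the count at an unadjusted p under 0.05 was 1239. Differences below are from all arrays unless said otherwise, and "without 4 arrays" means without arrays 53, 56, 62 and 68.

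**Figure D1:**
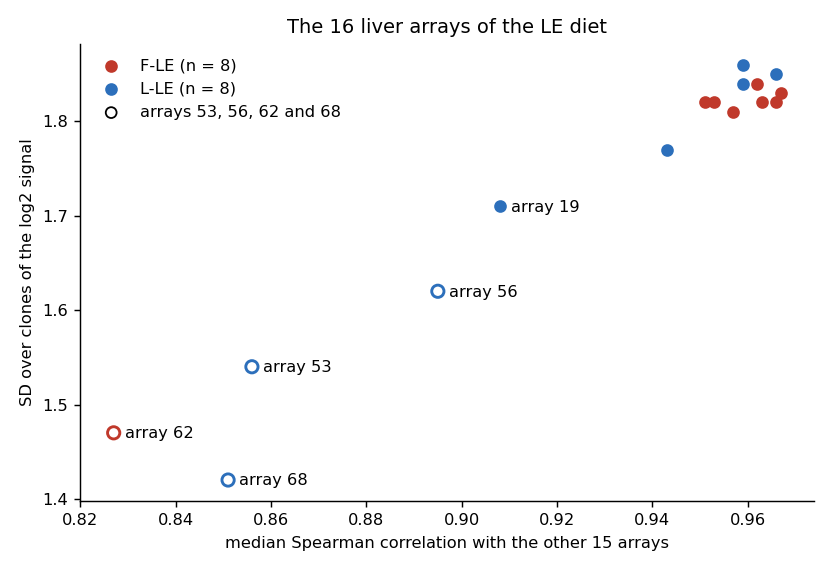
Each point is 1 liver array of the LE diet, placed by its median Spearman correlation with the other 15 arrays (x axis) and by the SD over tested clones of its log2 signal (y axis), in red for F-LE and blue for L-LE, with open circles for arrays 53, 56, 62 and 68. The 4 open circles have correlations of 0.827 to 0.895 and SDs of 1.42 to 1.62, and 3 of them belong to the L line.

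The line difference followed the level of a clone. The clones were split by mean level into 4 equal classes. From the lowest to the highest class the median difference was -0.175, -0.0341, 0.0662 and 0.152, and without 4 arrays it was -0.0792, -0.00872, 0.036 and 0.0567. Across clones, which are not independent, the Spearman correlation of level and difference was 0.494, and 0.266 without 4 arrays. Of the 297 clones higher at an unadjusted p under 0.05, 166 lay in the highest class and 7 in the lowest, while of the 207 lower clones 38 lay in the highest and 90 in the lowest. Clone sets, told apart by the start of the clone names, differed as well: the 2741 clones of the 1RT set, with a median level of 0.952, had a median difference of 0.0895 and 179 higher against 29 lower clones, whereas the 1856 tcbk clones, with a median level of -0.75, had a median difference of -0.0742 and 36 higher against 58 lower. Without 4 arrays the medians were 0.0548 and -0.0488, with 118 higher against 37 lower 1RT clones and 24 higher against 122 lower tcbk clones. What part the 4 arrays, the level and the clone set had in single differences was not tested.

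**Figure D2:**
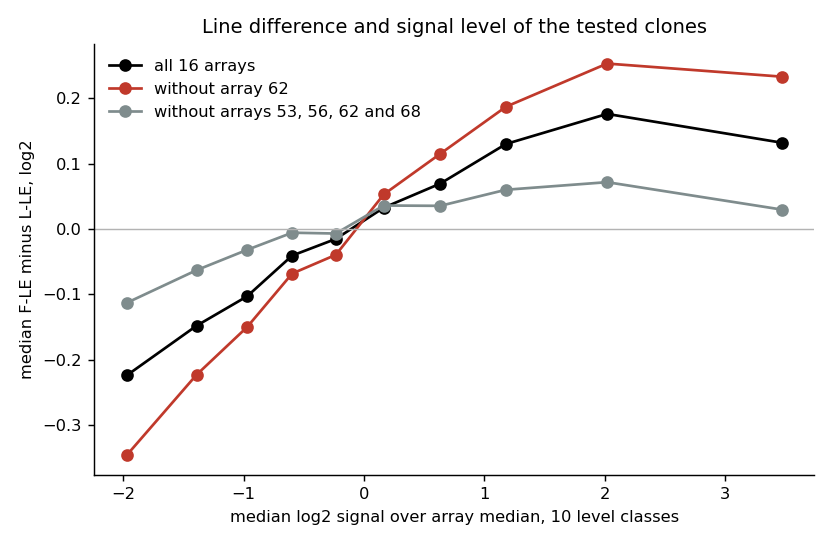
The median F-LE minus L-LE difference (y axis, log2) is drawn for 10 equal level classes of the 7784 clones against their median log2 signal over the array median (x axis), with all 16 arrays, without array 62, and without arrays 53, 56, 62 and 68. The lowest and highest classes lie at -0.224 and 0.132 with all arrays, at -0.346 and 0.233 without array 62 and at -0.113 and 0.0297 without 4 arrays.

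Enzymes of one-carbon and methionine metabolism had the highest median of the 22 gene lists. Its 5 clones were all higher in the F line, 3 of them at an unadjusted p under 0.05, with a median difference of 0.908. Those 3, of the enzymes FTHFD and BHMT described below, are reported by the study as higher in the F line on these arrays. Their direction and the rank of the list are therefore not independent evidence. List members come only from the 313 named clones, of which 202 were higher and 111 lower, 54 and 22 of them at an unadjusted p under 0.05, with a median of 0.128 and of 0.101 without 4 arrays. Of those 54 the study lists 48 as higher in the F line on these arrays, and it lists all 22 as lower. The direction of these clones is therefore not independent evidence. Over all tested clones 3853 were higher (49.5%) and 3931 lower, with a median of -0.00378. At an unadjusted p under 0.05, 3.82% of all tested clones were higher and 2.66% lower. These shares stand beside the counts of every list below. Without 4 arrays the median of the one-carbon list was 0.721 and 4 of its 5 clones were higher. All 5 lie in the third and the highest class of clones by level, which had medians of 0.0662 and 0.152. FTHFD, 10-formyltetrahydrofolate dehydrogenase, oxidizes a folate-bound formyl group to carbon dioxide and yields tetrahydrofolate and NADPH. Its clone 1RT110O02_C_H01 ranged from -0.07 to 1.51 in the F livers with a median of 0.62, and from -1.14 to 0.22 in the L livers with a median of -0.23. In 7 of the 8 F livers it was above every L liver. The means were 0.65 ± 0.469 and -0.30 ± 0.449 (SD, n = 8 each), a difference of 0.95 (standard error 0.219, 95% interval 0.49 to 1.41) or 1.93-fold (exact permutation p = 0.000622). It was 1.08 without 4 arrays (exact permutation p = 0.00253).

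A second FTHFD clone, tcbk0009.o.05, shown here after its values were seen, ranged from 1.39 to 3.15 (median 2.24) in the F livers and from -2.14 to 2.09 (median 1.25) in the L livers. The difference was 1.40 (standard error 0.448, exact permutation p = 0.00202), and 1.77 without 4 arrays. Array 19 held the value of -2.14. Both FTHFD clones were among the 46 called by SAM. BHMT, betaine-homocysteine S-methyltransferase, uses betaine to turn homocysteine back into methionine. It ranged from 2.66 to 4.53 (median 3.89) in the F livers and from 1.89 to 3.64 (median 3.11) in the L livers, and 7 of 8 F livers were above every L liver. The exception was array 62, at 2.66 with its nearest neighbour at 3.80. The difference was 0.91 (standard error 0.261, exact permutation p = 0.00622), or 1.88-fold, and without 4 arrays it was 0.72 (exact permutation p = 0.00126). The other 2 members lay lower. Cystathionine gamma-lyase (CGL), which makes cysteine, differed by 0.21 (exact permutation p = 0.273), and D-3-phosphoglycerate dehydrogenase (SERA), the first step of serine synthesis, by 0.32 with all arrays (exact permutation p = 0.248) and by -0.05 without 4 arrays.

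**Figure D3:**
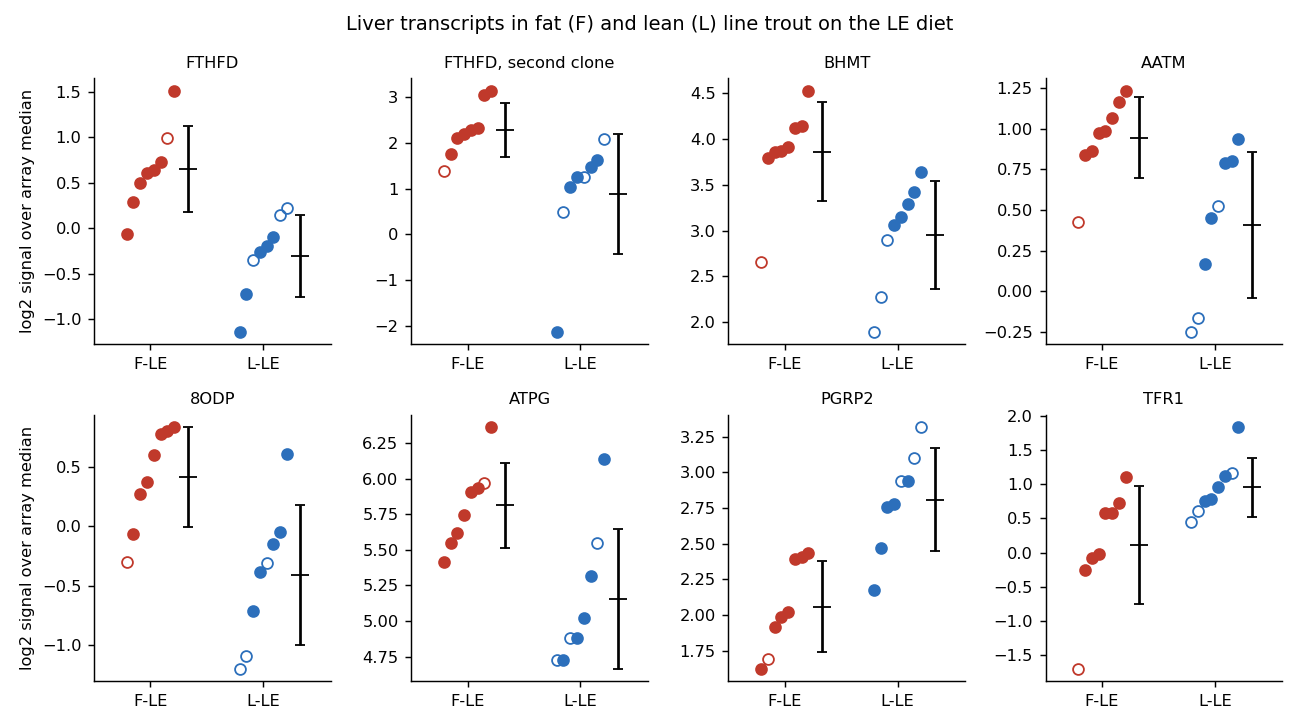
Log2 signal over the array median (y axes, each with its own range) of 8 clones in the 8 F-LE livers (red) and 8 L-LE livers (blue), 1 point a liver, with open circles for arrays 53, 56, 62 and 68 and bars for the mean and SD. FTHFD, BHMT, AATM, 8ODP and ATPG were higher on average and PGRP2 and TFR1 lower in the F line, and in every panel the 2 lines overlap.

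The 4 aminotransferase clones were also all higher in the F line, with a median difference of 0.482 (0.458 without 4 arrays) and 2 of them at an unadjusted p under 0.05. Of the 313 named clones 202 were higher, 54 of them at that threshold. The study reports the AATM and GABT clones described below as higher in the F line on these arrays, so that their direction here is not independent evidence. For AATM it also reports a higher level in the F line by RT-PCR, on livers that include its arrayed ones, and as protein. Mitochondrial aspartate aminotransferase (AATM) moves an amino group between aspartate and glutamate. Its clone 1RT69F18_D_C09 ranged from 0.43 to 1.24 (median 0.98) in F livers and from -0.25 to 0.94 (median 0.49) in L livers, a difference of 0.54 (standard error 0.182, exact permutation p = 0.00948). Without 4 arrays the difference was 0.39, and the lowest L values, -0.25 and -0.16, were on arrays 68 and 53. The second clone, tcad0005.c.22, differed by 0.43 (exact permutation p = 0.178), with the highest value of all, 2.72, on L array 56, and by 0.61 without 4 arrays (exact permutation p = 0.0152). 4-aminobutyrate aminotransferase (GABT), which breaks down 4-aminobutyrate, ranged from 1.72 to 3.16 (median 2.74) in F livers and from 1.48 to 2.56 (median 2.05) in L livers, and 5 F livers were above all L livers. It differed by 0.62 (exact permutation p = 0.0168), and by 0.43 without 4 arrays (exact permutation p = 0.121). Kynurenine/alpha-aminoadipate aminotransferase (AADAT), of lysine and tryptophan breakdown, differed by 0.39 (exact permutation p = 0.064).

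Of 4 other clones of amino acid and cofactor enzymes, 3 were higher and the median was 0.421 (0.243 without 4 arrays). Biotinidase (BTD), which frees biotin for reuse by carboxylases, went from a mean of 5.69 ± 0.424 in L livers to 6.23 ± 0.333 in F livers (SD, n = 8 each; exact permutation p = 0.0171). The mitochondrial glutamyl-tRNA amidotransferase subunit B (GATB) differed by 0.55 (exact permutation p = 0.0760) and by 0.18 without 4 arrays.

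In the list of NADPH, malate and glucose enzymes 4 of 6 clones were higher, with a median of 0.41 and of 0.255 without 4 arrays. All 6 lie in the highest class of clones by level, which had a median of 0.152, and of 0.0567 without 4 arrays. 6-phosphogluconate dehydrogenase (6PGD) yields NADPH in the pentose phosphate pathway. Its levels ran from 2.40 to 4.52 (median 3.39) in F livers and from 1.99 to 4.10 (median 2.94) in L livers, a wide overlap, and the difference was 0.51 with an interval of -0.12 to 1.14 (exact permutation p = 0.149). Without 4 arrays it was 0.83 (exact permutation p = 0.0518). Cytoplasmic malate dehydrogenase (MDHC), of the malate shuttle, differed by 0.41 (interval -0.18 to 1.00, exact permutation p = 0.204). The glucose transporter GTR11 differed by 0.54 (exact permutation p = 0.0429) and the glycogen-targeting phosphatase subunit PPR3D by 0.41 (exact permutation p = 0.0452), and without 4 arrays by 0.25 and 0.27.

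All 6 respiratory chain and ATP synthase clones were higher in the F line (median 0.43), but without 4 arrays the median was 0.16 and 1 was lower. These clones lie in the third and the highest class by level, which had medians of 0.0662 and 0.152. The gamma chain of ATP synthase (ATPG) had the smallest p of the list. It ranged from 5.41 to 6.36 (median 5.83) in F livers and from 4.72 to 6.14 (median 4.95) in L livers, a difference of 0.66 (standard error 0.198, exact permutation p = 0.00793). Only 1 F liver was above all L livers, since L array 60 lay at 6.14. A second ATPG clone in the same list differed by 0.16 (exact permutation p = 0.385) and by -0.07 without 4 arrays. The iron-sulfur subunit of complex III (UCRI) differed by 0.53 (exact permutation p = 0.0591).

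Proteolysis gave no common direction. Of 5 proteasome clones 3 were higher and 2 lower (median 0.161, and 0.0361 without 4 arrays). The beta subunit PSB11 was lower in the F line, from -0.88 to -0.29 (median -0.54) against -0.59 to 0.07 (median -0.18) in the L line, a difference of -0.34 (exact permutation p = 0.00435) that was -0.32 without 4 arrays (exact permutation p = 0.00379). The proteasome adaptor ECM29 was higher by 0.50 (exact permutation p = 0.0629). Of 12 clones of the ubiquitin system and other proteases 9 were higher, 4 of them at an unadjusted p under 0.05, and 1 of the 3 lower clones was past it too (median 0.149, and 0.147 without 4 arrays). Calpain-9 (CAN9), a calcium-dependent protease, was above all L livers in 6 of 8 F livers, with a difference of 0.58 (exact permutation p = 0.00513), and 0.36 without 4 arrays. Thimet oligopeptidase (MEPD), which cuts short peptides, differed by 0.45 (exact permutation p = 0.0155) and by 0.24 without 4 arrays.

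Among 10 clones of xenobiotic and antioxidant proteins 7 were higher, 3 at an unadjusted p under 0.05, with a median of 0.138 and of 0.255 without 4 arrays. 8ODP, which removes oxidized guanine nucleotides, ranged from -0.30 to 0.84 (median 0.49) in F livers and from -1.20 to 0.61 (median -0.35) in L livers. The difference was 0.83 (standard error 0.24, exact permutation p = 0.00761), and 0.65 without 4 arrays (exact permutation p = 0.0253). Cytochrome P450 2K4 (CP2K4) had a like difference but another pattern: the F livers lay between 2.95 and 3.32, whereas the L livers ran from 0.88 to 3.43, and their 3 lowest values, 0.88, 1.58 and 1.62, were on arrays 56, 53 and 68. The difference of 0.83 (exact permutation p = 0.0112) was 0.29 without 4 arrays (exact permutation p = 0.0985). The glucuronosyltransferase UDA1, named after its values were seen, differed by 0.40 with all arrays (exact permutation p = 0.0544) and by 0.68 without 4 (exact permutation p = 0.00379).

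Of 9 clones for fatty acid and acyl-CoA binding, desaturation and oxidation 8 were higher and 2 at an unadjusted p under 0.05, with a median of 0.257, and of 0.228 without 4 arrays, when all 9 were higher. The delta-5/delta-6 fatty acid desaturase (FADS), which makes long polyunsaturated fatty acids, ranged from 2.97 to 5.09 (median 4.14) in F livers and from 3.02 to 4.08 (median 3.59) in L livers. In 4 F livers it was above all L livers and in 1 below them. The difference was 0.66 (exact permutation p = 0.0384), and 0.53 without 4 arrays (exact permutation p = 0.174). The alpha subunit of the trifunctional enzyme of fatty acid oxidation (ECHA) differed by 0.32 (exact permutation p = 0.0145). Heart-type fatty acid binding protein (FABPH) had 2 clones that differed by 0.49 and 0.13 (exact permutation p = 0.0819 and 0.419), and by 0.29 and 0.17 without 4 arrays. None of 5 cholesterol synthesis clones passed an unadjusted p of 0.05, and their median was 0.163 (0.0979 without 4 arrays). In it ERG28, a scaffold of sterol demethylation in yeast, differed by 0.43 and cytosolic acetyl-CoA acetyltransferase (THIC), the first step, by 0.36 (exact permutation p = 0.184 and 0.193). Without 4 arrays ERG28 had 0.10 and THIC 0.24, and without L array 56 alone ERG28 had 0.184. In the list of lipoproteins and sphingolipid 2 of 6 clones were higher (median -0.0332, and -0.115 without 4 arrays). Ceramide kinase (CERK1) was lower in the F line by 0.70 (exact permutation p = 0.0581), and the difference without 4 arrays was -0.56. The F liver of array 62 lay at 0.42 and the other 7 between -1.83 and -0.80. The highest L values, 0.36, 0.32 and -0.11, were on arrays 53, 68 and 56. Apolipoprotein A-I-1 (APA11), of high density lipoprotein, differed by 0.46 (exact permutation p = 0.0828), and by 0.32 without 4 arrays.

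**Figure D4:**
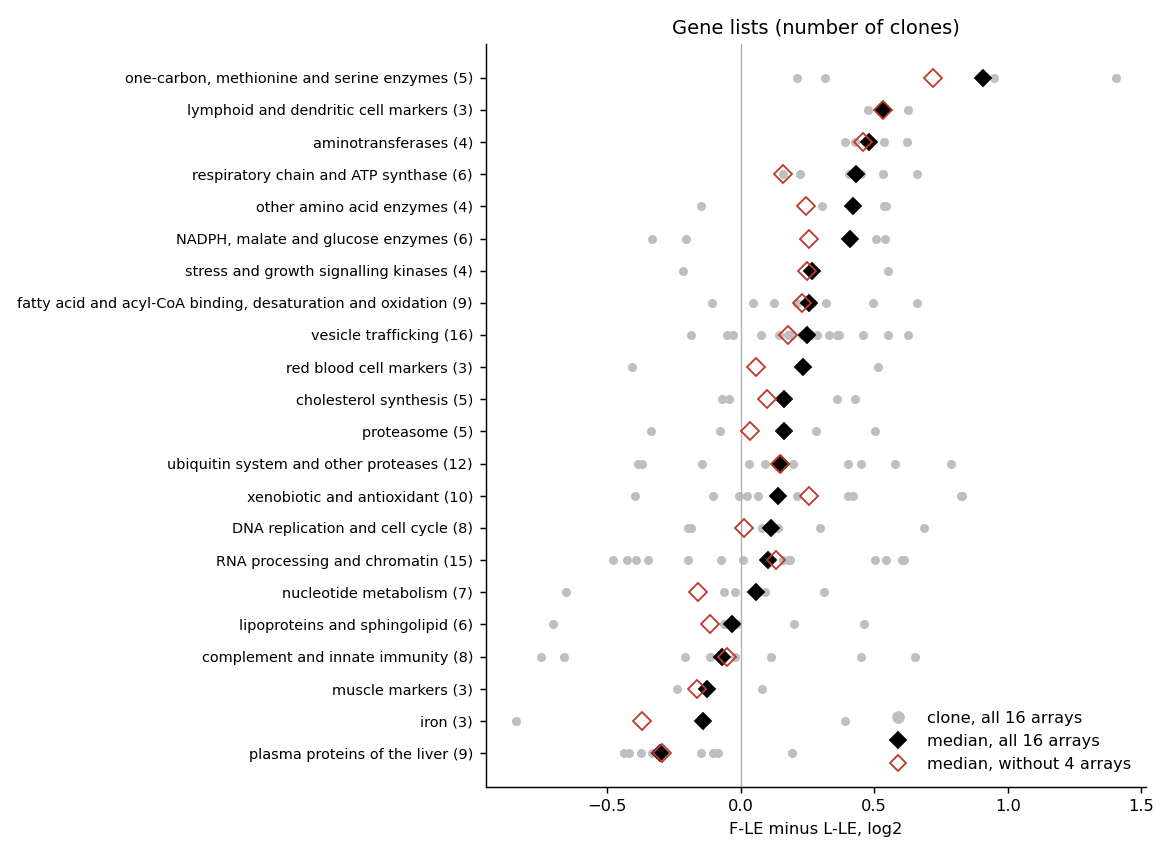
For each of 22 gene lists (y axis, with the number of clones) grey points give the F-LE minus L-LE difference of each clone (x axis, log2), black diamonds the median with all 16 arrays and open red diamonds the median without arrays 53, 56, 62 and 68. One-carbon, methionine and serine enzymes had the highest median (0.908) and plasma proteins of the liver the lowest with all arrays (-0.301), against 0.128 over the 313 named clones from which the lists are drawn and -0.00378 over all 7784.

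Plasma proteins made by the liver had the lowest median of the lists with all arrays. Without 4 arrays the 3 iron clones had a lower one, -0.371. Of 9 clones 8 were lower in the F line, 1 of them at an unadjusted p under 0.05, with a median of -0.301 and of -0.295 without 4 arrays, whereas the highest class of clones by level, where 8 of the 9 lie, had a median of 0.152. Transthyretin (TTHY), a carrier of thyroid hormone, ranged from 2.80 to 4.22 (median 4.0) in F livers and from 3.80 to 4.65 (median 4.35) in L livers, with 2.80 on array 62. The difference was -0.42 (exact permutation p = 0.0309), and -0.40 without 4 arrays (exact permutation p = 0.00253). Coagulation factor V (FA5) had -0.37 (exact permutation p = 0.0803) and -0.58 without 4 arrays (exact permutation p = 0.00126). These 2 members act in hormone transport and clotting.

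Complement and innate immunity clones were split, 3 higher and 5 lower (median -0.0695, and -0.0501 without 4 arrays), with 2 on each side at an unadjusted p under 0.05. PGRP2, an amidase that cleaves bacterial peptidoglycan and is secreted by the liver in mammals, had the smallest limma p of the lower clones with a protein name. It ranged from 1.62 to 2.43 (median 2.00) in F livers and from 2.18 to 3.32 (median 2.86) in L livers, and 5 F livers were below every L liver. The difference was -0.75 (standard error 0.173, interval -1.11 to -0.39), or 1.68-fold higher in the L line (exact permutation p = 0.00109). Without 4 arrays it was -0.51 (exact permutation p = 0.0189). PGRP2 was 1 of the 2 lower clones called by SAM, and in a fit over all 4 groups without array 59 of the HE diet, run after the data had been seen, it was the only clone called on the LE diet (limma adjusted p = 0.0767). Both calls rest on the same LE livers. The study lists PGRP2 as lower in the F line on these arrays, so that its direction is not independent evidence. Complement factor H (CFAH), which restrains complement and was named after its values were seen, had -0.66 with all arrays (exact permutation p = 0.0634) and -1.01 without 4 (exact permutation p = 0.00631). CARD4, a sensor of bacterial fragments, was higher by 0.45 (exact permutation p = 0.0275), while complement C3 (CO3) differed by -0.02 (exact permutation p = 0.926) and by 0.10 without 4 arrays.

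Transferrin receptor 1 (TFR1), through which cells take up iron, was lower in the F line. It ranged from -1.70 to 1.10 (median 0.28) in F livers and from 0.44 to 1.84 (median 0.87) in L livers, and 4 F livers were below all L livers. The lowest value was on array 62. The difference was -0.84 (standard error 0.31, exact permutation p = 0.0155), and -0.72 without 4 arrays (exact permutation p = 0.0265). Iron-responsive element-binding protein 1 (IREB1), which in mammals stabilizes the transferrin receptor mRNA, was higher by 0.39 over the 6 livers measured in each line (exact permutation p = 0.0281). The third member of the iron list (median -0.143, and -0.371 without 4 arrays), the iron-sulfur assembly protein ISAM2, differed by -0.14 and, without 4 arrays, by -0.37. In nucleotide metabolism 4 of 7 clones were higher with all arrays (median 0.0566) and none without 4 arrays (median -0.16). The nucleoside transporter S29A1 was the only member at an unadjusted p under 0.05, lower by 0.66 (exact permutation p = 0.00963) and by 0.45 without 4 arrays, with array 62 at 1.86 and the other F livers between 3.12 and 3.67. The ectonucleotidase ENP1 differed by 0.31 (exact permutation p = 0.419) and by -0.16 without 4 arrays.

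Vesicle trafficking clones were higher in 13 of 16, 5 of them at an unadjusted p under 0.05, with a median of 0.248, and of 0.178 without 4 arrays. The Golgi tethering component COG5 differed by 0.33 (exact permutation p = 0.00264) and caveolin-2 (CAV2), of membrane pits, by 0.37 (exact permutation p = 0.00901), with 5 and 3 F livers above all L livers. RNA processing and chromatin clones were split, 9 higher and 6 lower (median 0.102, and 0.132 without 4 arrays), and the median was -0.000597 after quantile normalization. In it 2 partners of mRNA 3′ end formation lay on opposite sides: CPSF3, the nuclease that cuts the transcript, was higher by 0.54 (exact permutation p = 0.00435), and the scaffold symplekin (SYMPK) lower by 0.48 (exact permutation p = 0.0118). Without 4 arrays CPSF3 was higher by 0.28 and SYMPK lower by 0.46. By level CPSF3 lay in the highest class of clones, with a median difference of 0.152, and SYMPK in the lowest, with -0.175. What part the level had in their opposite signs was not tested. The pseudouridine synthase DKC1 was higher by 0.61 (exact permutation p = 0.0157), and by 0.45 without 4 arrays. Of 8 clones of DNA replication and cell cycle 6 were higher (median 0.115), and 4 without 4 arrays (median 0.0117). Parafibromin (CDC73), of the Paf1 transcription complex, ranged from 3.26 to 3.87 in F livers and from 2.23 to 3.70 in L livers. It differed by 0.69 (exact permutation p = 0.0042), and by 0.47 without 4 arrays. Its lowest L values, 2.23 and 2.44, were on arrays 53 and 68. Replication factor C subunit 2 (RFC2) differed by 0.30 (exact permutation p = 0.181) and by -0.0034 without 4 arrays. Of 4 kinases 3 were higher (median 0.268, and 0.248 without 4 arrays), with MK12, a p38 MAP kinase, at 0.55 (exact permutation p = 0.0191) and DYR1A at 0.26 (exact permutation p = 0.00761).

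The remaining named clones belong to no list. Higher in the F line were an elongation factor 1-alpha clone (EF1A1, 0.62, exact permutation p = 0.0042), keratin 8 (K2C8, 0.50, exact permutation p = 0.00357), an intermediate filament of liver epithelium, and the zinc finger proteins ZN452 (0.72, exact permutation p = 0.00622) and ZN403 (0.67, exact permutation p = 0.0112). Their differences without 4 arrays were 0.60, 0.50, 0.59 and 0.66. Lower were a LINE-1 reverse transcriptase homolog (LIN1, -0.65, exact permutation p = 0.00839), the phosphatase PP2C1 (-0.54, exact permutation p = 0.00637), the tRNA methyltransferase TRM1 (-0.52, exact permutation p = 0.0213), the NAD synthesis enzyme NADC (-0.31, exact permutation p = 0.0115) and the G protein subunit GNA11 (-0.28, exact permutation p = 0.0028). Without 4 arrays these were -0.76, -0.39, -0.57, -0.40 and -0.22. L array 19 had the highest LIN1 value, 7.58, with the next at 6.54.

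Over all tested clones the 2 of smallest p in each direction were FTHFD, PGRP2 and 2 clones without a protein name. Clone 1RT83M15_A_G08 ranged from 2.67 to 4.46 (median 4.15) in F livers and from 4.53 to 5.59 (median 4.96) in L livers. The lines did not overlap, and the difference was -0.98 (standard error 0.226), 1.98-fold higher in the L line (exact permutation p = 0.000155, the smallest that 8 against 8 livers allow), and -0.71 without 4 arrays. Clone tcbk0025.h.01 was higher in the F line, from -1.01 to -0.45 against -1.50 to -0.65, by 0.56 (exact permutation p = 0.00124). Only 2 other clones had lines that did not overlap, picked out after their values were seen: 1RT83N02_D_G01 was lower by 0.83 (standard error 0.215) and 1RT57O01_A_H01 higher by 0.47 (standard error 0.138). Without 4 arrays these were -0.50 and 0.32. The lines did not overlap for 1 clone higher (0.0128%) and 2 clones lower (0.0257%) of 7784.

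The tank means gave another view of the spread, since fish of a tank share it. The source label names the tank of 15 of the 16 livers, always as the number that follows the condition, and the last liver was placed by that number. The only livers of L tank 2 were those of arrays 53 and 56, so that its means come wholly from arrays that stood apart. Array 62 was in F tank 2 and array 68 in L tank 1. Leaving out the 4 arrays also removes L tank 2, and for it tank and array quality cannot be told apart. The means of the 3 F tanks lay all above or all below those of the 3 L tanks for 467 higher (6.03%) and 371 lower (4.79%) of 7746 clones with a mean for every tank. They did so for FTHFD, from 0.50 to 1.08 in F tanks against -0.50 to 0.18 in L tanks. BHMT had 3.55 to 4.08 against 2.39 to 3.29, and PGRP2 1.77 to 2.17 against 2.63 to 3.13. The tanks overlapped for TFR1 (-0.40 to 0.91 against 0.72 to 1.30), for FADS (3.74 to 4.83 against 3.40 to 3.77) and for 6PGD (3.06 to 4.07 against 2.29 to 3.65). With 3 tanks against 3 no exact two-sided test can go below p = 0.10.

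In the labelled tissue, liver, the 11 hepatocyte clones lay between the 94.5 and 99.9 percentile of the mean level over clones. Of them 2 were higher and 9 lower in the F line, 2 of these 9 at an unadjusted p under 0.05, and 7 of the 11 are clones that the plasma protein list also holds (median difference -0.15, and -0.267 without 4 arrays). Their mean level per liver ran from 3.88 to 4.83 in F livers and from 4.12 to 4.99 in L livers. Of the red cell markers RHAG lay at the 7.44 percentile, ERMAP at 86.6 and band 3 (B3AT) at 90.7. Of the clones named for muscle proteins, parvalbumin lay at 97.4, titin at 96.1 and MYOD2 at 77.5. The lymphoid and dendritic cell markers lay at 95.3 (perforin), 81.3 (SH21B) and 58 (LY75). Some clones named for other cells thus lay within the range of the hepatocyte clones, so that these percentiles do not check the tissue. The 3 red blood cell markers (median 0.235) had 0 at an unadjusted p under 0.05, with mean levels of 0.88 to 1.18 in F livers and 0.254 to 1.28 in L livers. Of the 313 named clones, from which all markers were drawn, 54 were higher in the F line at an unadjusted p under 0.05, as were 3.82% of all 7784. The study lists 48 of those 54 as higher in the F line on these arrays, so that counts of higher markers are not independent evidence. All 3 lymphoid and dendritic cell markers were higher in the F line at that threshold of limma (median 0.532 with and without the 4 arrays), with mean levels of 1.47 to 2.67 against 1.05 to 1.98. Of these, perforin (PERF), the pore protein of killer lymphocytes, ranged from 3.16 to 4.30 (median 3.95) in F livers and from 2.48 to 3.61 (median 3.39) in L livers and differed by 0.63 (exact permutation p = 0.0113), the adaptor SH21B by 0.48 (exact permutation p = 0.053) and the receptor LY75 by 0.53 (exact permutation p = 0.0598). Without 4 arrays PERF had 0.53, SH21B 0.35 and LY75 0.89. In whole liver, fewer cells of a type and less RNA per cell cannot be told apart, and the part of blood or immune cells in the other differences was not tested. The 3 clones named for muscle proteins had a median of -0.127. Parvalbumin (PRVA) and titin (TITIN) differed by -0.13 and -0.24 (exact permutation p = 0.531 and 0.722), and the red cell Rhesus-associated glycoprotein RHAG and ERMAP, an erythroid membrane protein, by -0.41 and 0.51 (exact permutation p = 0.053 and 0.144). Without 4 arrays RHAG had -0.37 and ERMAP 0.11, and without L array 56 alone ERMAP had 0.30. PRVA and TITIN had -0.04 and -0.16 without 4 arrays. The clone named titin followed the clone named pyruvate carboxylase (PYC) on all 16 arrays, with a median absolute distance of 0.0287 and a largest one of 0.246, so that these spots did not give separate measurements of titin and pyruvate carboxylase.

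The clones that the additional file on line effects lists were, on the LE diet, mostly on the side that the study gives them. Of 97 listed as higher in the F line 94 were higher here, 48 of them at an unadjusted p under 0.05, and of 64 listed as lower 61 were lower, 22 past it. The medians were 0.399 and -0.283, and 0.34 and -0.36 without 4 arrays. Since the study chose them on these arrays, the counts are a description. Of the 97 higher clones 52 were of the 1RT set and 4 tcbk, and of the 64 lower ones 10 were 1RT and 30 tcbk.

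On the HE diet, in other fish of the same lines, limma called 0 of 7763 clones (0%) for F minus L over 32 arrays, with 200 higher and 231 lower at an unadjusted p under 0.05, and 0 without array 59, with 102 and 102. The difference between the diets in F minus L was tested by its interaction, which also called 0 of 7763 clones (0%; smallest adjusted p = 0.548), with 523 at an unadjusted p under 0.05, and 0 without array 59 (smallest adjusted p = 0.195). For the transcripts above the HE difference is given without array 59, an F-HE array on which ATPG lay at 0.41 against 4.95 to 5.79 on the other 7. FTHFD was higher in the F line by 0.39 on HE against 0.95 on LE, and the second clone by 0.80 against 1.40. BHMT had 0.08 on HE against 0.91 on LE, with an interaction of 0.83 without array 59 (limma adjusted p = 0.811). PGRP2 had -0.37 against -0.75, TFR1 -0.61 against -0.84, CERK1 -0.70 against -0.70, ATPG 0.62 against 0.66, and 8ODP 0.23 against 0.83. Clone 1RT83M15_A_G08 had 0.28 against -0.98. On L-HE array 13 this clone lay at 2.75 against 4.25 to 5.18 on the other 7 L-HE arrays, and its lowest F-HE value without array 59 was 3.58, on array 65. Of the 60 clones named by rule 47 had the same sign on both diets without array 59, and 26 with it. Most of them were named for a small p on LE among clones that the study had picked over both diets, so that these counts are a description. Without array 59 the sign was the same for 283 of 503 clones at an unadjusted p under 0.05 on LE (56.3%) and for 3536 of all 7763 (45.5%). Across clones the Pearson correlation of the LE and HE differences was -0.3 with all 32 arrays, -0.0376 without array 59 and 0.164 without arrays 53, 56, 59, 62, 65 and 68.

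**Figure D5:**
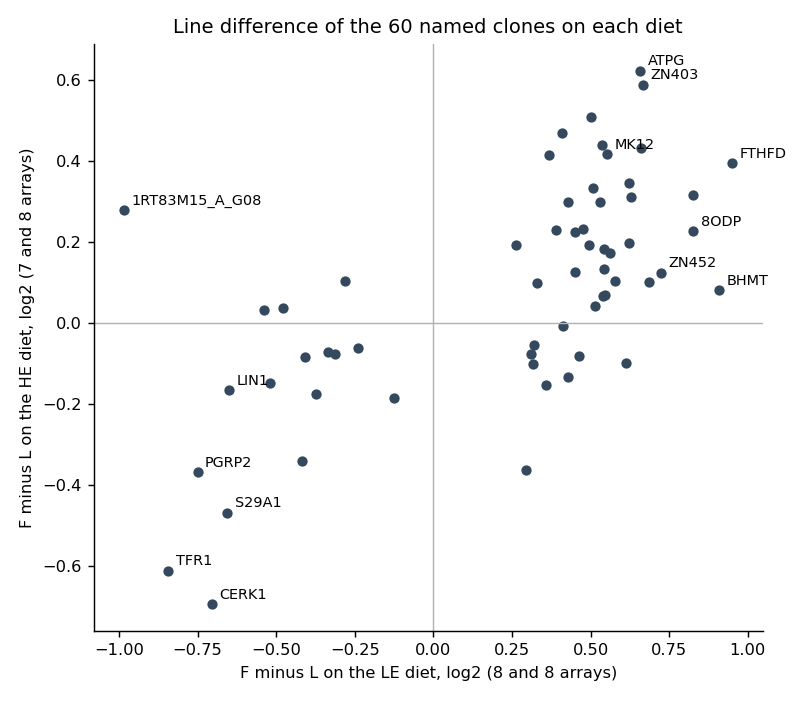
Each point is 1 of the 60 named clones, placed by F minus L on the LE diet (x axis, log2, 8 and 8 livers) and on the HE diet without array 59 (y axis, log2, 7 and 8 livers). Of the 43 clones higher in the F line on LE 34 were higher on HE, and of the 17 lower ones 13 were lower. FTHFD lay at 0.95 and 0.39, BHMT at 0.91 and 0.08, and TFR1 at -0.84 and -0.61.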

How the data were processed

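Liver RNA of 16 trout was analysed here, 8 F-LE and 8 L-LE, beside 16 livers of the HE groups. The deposited values are log10 signals. To make them, the authors read the radioactivity of each spot, dropped spots that held too little DNA, corrected for spotted DNA by an oligonucleotide hybridization, scaled to the array median and took the logarithm. Differences in RNA per liver cannot be seen in such values. A bare 0 marks an excluded spot and was treated as missing (41354 of the cells), and 17 zeros with decimals were kept. Of the 9 livers sampled in a group the methods give 6 as hybridized, without saying which, so that all 8 labelled ones were used. The number of arrays limits the precision.

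Values were converted to log2 and tested with limma 3.58.1 in R 4.3.3 over 7784 clones with at least 5 values in both groups, with Benjamini-Hochberg adjustment over all of them and a threshold of 0.15. When arrays were left out, 3 values per group were required. The interaction was fitted over 32 arrays. For single transcripts the exact permutation test over livers was two-sided. Both limma and SAM were run on simulated arrays with independent noise for each clone. These did not copy arrays that stand apart, so that they do not check the tests on such arrays. Clones are named by this rule: the 10 with a protein name and the smallest p in each direction, the 2 of smallest p in each list of 3 or more clones, those the study measured by RT-PCR, and the 2 of smallest p in each direction over all clones. Other list members shown were added after their values were seen. Lists were matched by the protein names of the additional files. The members and lists were chosen with earlier results of these data known. Alternatives were other thresholds, array sets, normalizations, filters, variance models and tank terms, SAM and each array left out in turn.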

Additional observations from a re-analysis of the deposited data

Results flagged for a closer look

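In 17 of 120 groups of 8 livers (14.2%) of the 60 named clones, a liver lay further from the rest than the 95% limit of Dixon's gap test, which chance passes in about 1 in 20 groups. Array 62 gave 10 of the 17 and the 4 arrays that stood apart gave 14. On array 62 itself the median correlation with the other arrays was 0.827 and the SD over clones 1.47, both the lowest of the F line. The control spots of F array 40 had a median of 2.22 on the log10 scale, with the next F array at 2.12.

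On array 62 BHMT lay at 2.66, S29A1 at 1.86, GATB at 1.01, TTHY at 2.80, MDHC at 0.711, titin at 0.948 and 1RT83M15_A_G08 at 2.67, each the lowest F liver. CERK1 at 0.421, RHAG at -1.12 and parvalbumin (PRVA) at 5.09 were each the highest F liver there. Without array 62 the difference of BHMT was 1.08, of S29A1 -0.462, of TTHY -0.267, of MDHC 0.641, of CERK1 -0.924 and of 1RT83M15_A_G08 -0.794. Titin turned from -0.24 to 0.148.

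In the L line, ERG28 lay at -1.35 and AATM clone tcad0005.c.22 at 2.72 on array 56, ECHA at 3.82 on array 53 and RHAG at -0.629 on array 68. Without these livers the differences were 0.184 for ERG28, 0.662 for AATM, 0.246 for ECHA and -0.270 for RHAG. On arrays that did not stand apart, LIN1 lay at 7.58 on L array 19 and tcbk0025.h.01 at -0.653 on L array 66, and GABT at 1.72 on F array 5. Without them the differences were -0.459, 0.658 and 0.758.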

How the results depend on the processing

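With limma 0 clones were called under every normalization, filter, variance model, tank term and array set listed in the processing, with each of the 16 arrays left out in turn (lowest and highest count 0 and 0, smallest adjusted p from 0.206 to 0.982) and, for the interaction, with each of the 32 arrays left out (0 and 0, smallest adjusted p from 0.195 to 0.697). Exceptions were other tests or fits: SAM called 46 clones, 1145 without array 62 and 54 without arrays 53, 56, 62 and 68, and limma over all arrays but 59 called 1, PGRP2. The last 3 were chosen after seeing the data, as was the count at an unadjusted p under 0.05. That count was 504, and moved to 330 (208 higher, 122 lower) in the fit of all 32 arrays. With single arrays left out it ran from 330 (without L-LE array 68) to 1239 (without F-LE array 62, 551 higher and 688 lower), and was 761 without L-LE array 20. It was 466 after quantile normalization (249 higher, 217 lower) and 507 after centring (265 higher, 242 lower).

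Tank numbers are shared by the lines. With the tank number as a replicate block 0 clones were called (smallest adjusted p = 0.335), and 949 had an unadjusted p under 0.05 (514 higher, 435 lower). Deviations of same-numbered tanks correlated at -0.088, 0.45 and 0.279, and F tank 1 followed L tank 3 more closely (0.441) than L tank 1. The value of 0.45 is that of the tanks numbered 2, which hold arrays 53, 56 and 62. Whether tanks of the same number share more than the number was not tested.

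Of 1675 differences of named clones under the alternatives 1671 kept their sign. ENP1 (-0.16), RFC2 (-0.0034) and SERA (-0.054) turned negative without 4 arrays, and titin (TITIN), which ran from -0.38 to 0.15 with single arrays left out, turned positive without array 62. Among transcripts shown outside the naming rule, the second ATPG clone (-0.07) and CO3 (0.10) changed sign without 4 arrays. The cause was not tested. The median standard error of 0.192 over 8 and 8 livers limits what could be called.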
